A study of Arabidopsis thaliana with 4 samples.

Results

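Plant mitochondria can pass electrons to oxygen by a route that bypasses most of the proton pumps of the respiratory chain, and 10 nuclear genes of that route and of the stress response it belongs to are described here in ClpD-overexpressing and wild-type Arabidopsis thaliana seedlings. The genes were chosen by locus: the alternative oxidase genes AOX1A, AOX1B, AOX1C, AOX1D and AOX2, the alternative NADH dehydrogenase genes NDA1, NDA2 and NDB2, and the stress markers AT2G21640 and OM66. Each was found once among the 27554 genes with an identifier in the deposited table. Ribosome footprints, mRNA pieces shielded from nuclease by a ribosome, were counted in whole seedlings aged 6 days. Line 5, which overexpresses ClpD constitutively in the WT background, gave 2 libraries, and WT gave 2 libraries. ClpD, listed as ERD1, is a Clp-family ATPase that is made in the cytosol and works inside chloroplasts. Per the labels, its uncleaved precursor builds up in line 5, and the study asked which genes change in transcription or translation.

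An alternative oxidase takes electrons directly from ubiquinol in the inner mitochondrial membrane and reduces oxygen without pumping protons, and alternative NADH dehydrogenases feed electrons into ubiquinone without complex I. Transcripts of AOX1A and NDB2 are known to rise together when the main respiratory chain is inhibited. That response is mitochondrial retrograde signalling: NAC transcription factors such as NAC017, held in the endoplasmic reticulum membrane until released, switch on nuclear genes that include AOX1A, AT2G21640 and OM66.

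The libraries held 42291527 and 38990360 counts for line 5 and 29772406 and 27260818 for WT. ClpD footprints stood at 3112 and 3302 CPM (footprint counts scaled to library size by the TMM method) in line 5, against 167 and 175 CPM in WT. One overexpression line was used, so ClpD and anything else particular to it cannot be told apart. Whether the 2 libraries per group were grown separately is not stated, so p-values measure the spread between these libraries, which may be technical. Footprint counts follow both mRNA amount and ribosome occupancy, and matching RNA-seq was not analysed here. In whole seedlings, fewer cells of a type and less RNA per cell cannot be told apart. The 3 shoot markers were abundant in every library, with summed levels of 25939 and 24068 CPM in line 5 and 32330 and 34885 CPM in WT. Of 7 root markers, PYK10 and SCR were well counted, but the root hair genes EXPA7 and SHV2, the endodermal gene CASP1 and the root aquaporin TIP2;3 had between 0 and 24 counts in any library. MYB36 had between 4 and 14 counts. Of the 7, only MYB36, SCR and PYK10 had enough counts to be tested, and SCR was called lower in line 5. None of the 3 shoot markers was called, with log2 fold changes, line 5 over WT, from -0.73 to -0.30.

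Of the 10 genes, 7 had enough counts to be tested, 1 rose and 1 fell in line 5. AT2G21640 rose and NDA1 fell by edgeR's quasi-likelihood test, with p-values adjusted by Benjamini-Hochberg over all 18737 genes tested and a threshold of 0.05. By the same test 6.72% of all genes tested were called higher and 8.72% lower. The median log2 fold change of the 7 tested genes was 0.09, beside 0.0023 over all genes tested. AOX1B, AOX1D and AOX2 had too few counts. AOX1C was at the level of the count filter in both line 5 libraries and in 1 of the 2 WT libraries.

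**Figure D1:**
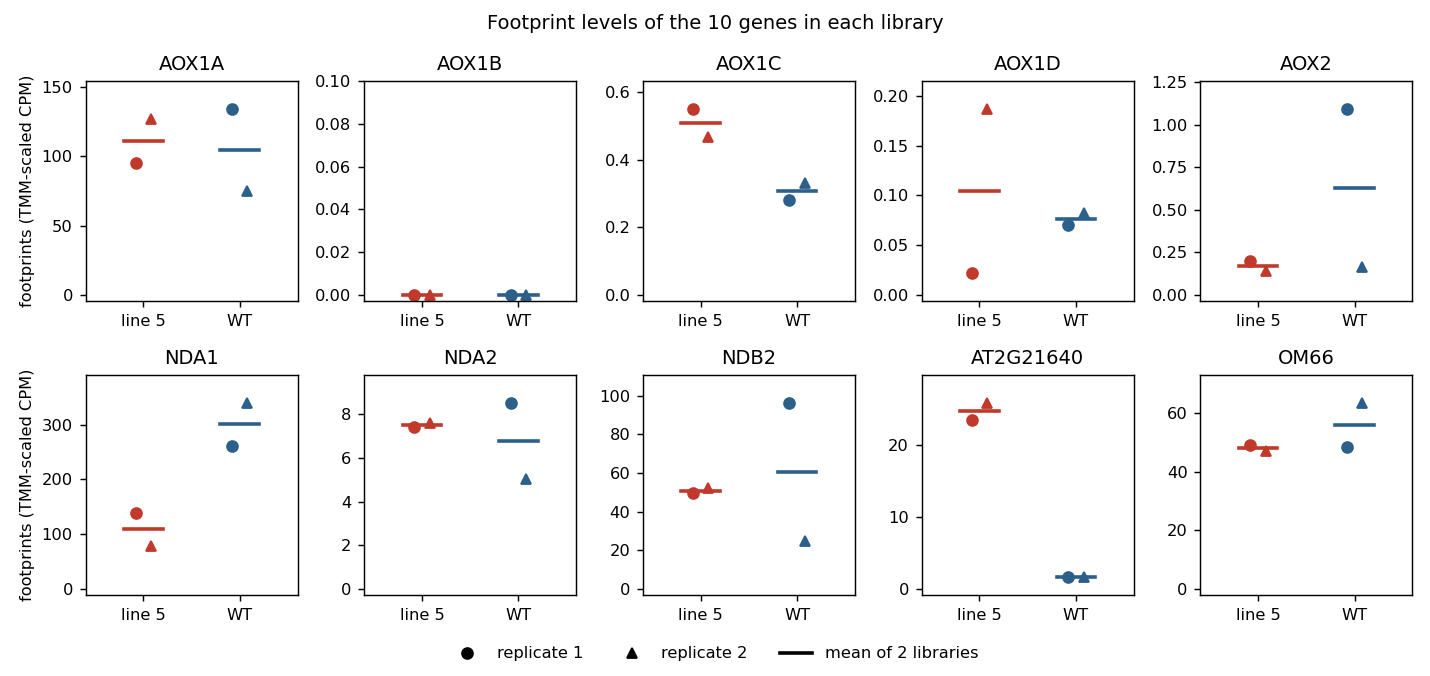
Footprint level of each of the 10 genes in TMM-scaled CPM on a linear axis from 0, with 2 libraries of line 5 on the left and 2 of WT on the right of each panel. Circles are replicate 1, triangles replicate 2 and bars the mean; AT2G21640 and NDA1 separate the groups widely, while AOX1A, NDA2, NDB2 and AOX2 have a wide gap between the WT libraries.

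Among the oxidase genes, AOX1A supplied nearly all footprints. Per length, in the authors' FPKM, its level was 93.0 and 127 in line 5 and 116 and 60.5 in WT, which made up between 98.9% and 99.3% of the summed FPKM of the 5 oxidase genes in every library. AOX1A (AT3G22370), the stress-induced oxidase, stood at 94.98 and 127 CPM in line 5, against 134 and 74.7 CPM in WT. Both line 5 values lay between the WT values. The log2 fold change, line 5 over WT, was 0.09 (SE 0.308, 95% interval -0.70 to 0.87, adjusted p = 0.858). Its sign turned to -0.27 without WT replicate 2 and to -0.13 without line 5 replicate 2, and it was 0.57 without WT replicate 1 (adjusted p = 0.0725).

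AOX1C (AT3G27620) had 25 and 20 counts in line 5, against 8 and 8 in WT, or 0.550 and 0.467 CPM against 0.282 and 0.330 CPM. The line 5 libraries were both higher, as in 34.7% of all genes tested, but the fold change was not called (log2 fold change 0.73, SE 0.405, adjusted p = 0.254). The ratio of summed counts, line 5 over WT after scaling, was 1.68 with an exact 95% counting interval of 0.929 to 3.18. Intervals of this kind cover counting error only.

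AOX1D (AT1G32350), an oxidase known to rise during leaf senescence, had 1 and 8 counts in line 5 and 2 and 2 in WT. At this depth no difference was detectable: the scaled ratio of line 5 over WT was 1.34 (95% counting interval 0.374 to 5.96), with 2.46 without line 5 replicate 1 and 0.289 without line 5 replicate 2. AOX1B (AT3G22360), the neighbour of AOX1A on chromosome 3, had 0 counts in all 4 libraries. A count of 0 allows up to 0.0660 and 0.0701 CPM in the line 5 libraries and 0.106 and 0.124 CPM in the WT libraries, taking 3 counts per library as the floor. Whether reads shared by oxidase paralogs were divided between them is not given in the sources used here.

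AOX2 (AT5G64210), an oxidase whose transcripts are known from seeds, had 9 and 6 counts in line 5, against 31 and 4 in WT. These correspond to 0.198 and 0.140 CPM in line 5 and 1.09 and 0.165 CPM in WT. WT replicate 1 was above both line 5 libraries and WT replicate 2 lay between them. The scaled ratio of WT over line 5 was 3.92 (95% counting interval 2.08 to 7.72) over the libraries together, 0.971 without WT replicate 1 and 6.43 without WT replicate 2. With 4 libraries AOX2 failed the count filter. It entered the fit without WT replicate 2 through WT replicate 1, its one high library and then the single WT library, so the log2 fold change of -2.66 there (edgeR, adjusted p = 0.0269) shows no more than those counts. The 3 seed storage and oil body markers, CRU3, CRA1 and OLEO1, summed to 8.58 and 1.68 CPM in line 5 and 21.5 and 23.9 CPM in WT. None of these 3 was called by edgeR, with adjusted p from 0.0623 to 0.172, and their part in the AOX2 values was not tested.

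NDA1 was the one dehydrogenase gene of the group that fell. NDA1 (AT1G07180), which oxidises NADH on the matrix side and is known for light-dependent transcripts, stood at 138 and 79.0 CPM in line 5, against 262 and 341 CPM in WT. Both line 5 libraries were below both WT libraries, as in 33.4% of all genes tested. The mean was 109 ± 41.9 CPM in line 5 and 301 ± 55.8 CPM in WT (SD, n = 2 each). Footprints were 2.77-fold lower in line 5 (log2 fold change -1.47, SE 0.299, 95% interval -2.24 to -0.71, adjusted p = 0.0381). The fold change stayed negative with each library left out, between -1.93 and -1.12. The call was lost without line 5 replicate 1 (edgeR, adjusted p = 0.0752) and without line 5 replicate 2 (edgeR, adjusted p = 0.190), where 0.0740% and 0.0159% of all genes tested were called lower.

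NDA2 (AT2G29990), the second matrix-side enzyme, was far less abundant and did not separate the groups. It stood at 7.44 and 7.61 CPM in line 5 and 8.53 and 5.04 CPM in WT. The line 5 pair lay between the WT values, with a log2 fold change of 0.14 (SE 0.267, 95% interval -0.54 to 0.83, adjusted p = 0.723), which turned to -0.18 without WT replicate 2.

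NDB2 (AT4G05020), which oxidises cytosolic NADH on the outer face of the inner membrane, had the widest range of fold changes among the 7 tested genes when single libraries were left out. The level was 49.4 and 52.1 CPM in line 5, against 96.4 and 24.8 CPM in WT. The line 5 libraries were close together and the WT libraries differed 3.88-fold on either side of them. With all 4 libraries the log2 fold change was -0.26 (SE 0.596, 95% interval -1.78 to 1.27, adjusted p = 0.779). Without WT replicate 1 it was called higher in line 5 (log2 fold change 1.03, adjusted p = 0.00303), where 11.4% of all genes tested were called higher and 15.1% lower. Without WT replicate 2 it was called lower (-0.92, adjusted p = 0.00449), where 10.2% of all genes tested were called lower and 7.24% higher. On the scale of log2(FPKM + 1), NDB2 had a log2 fold change of 0.27 and was not called.

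**Figure D2:**
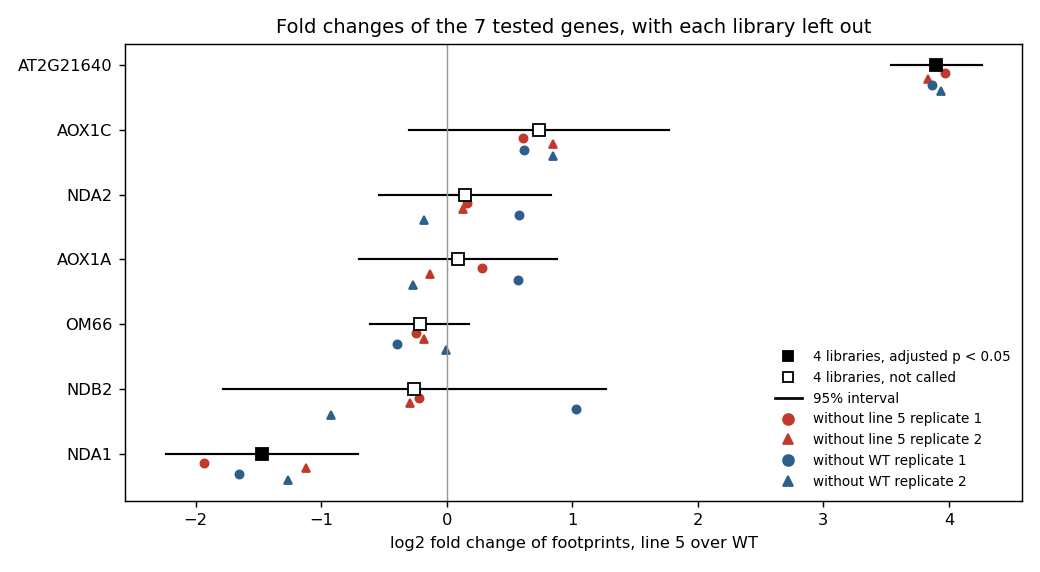
Log2 fold change of footprints, line 5 over WT, for the 7 tested genes. Squares with 95% intervals use 4 libraries (filled where the adjusted p is below 0.05), and small red and blue symbols leave out 1 line 5 or 1 WT library; NDB2 runs from -0.92 to 1.03 across the WT libraries left out, while AT2G21640 stays between 3.83 and 3.97.

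Per length, NDA1 was the most abundant of the 3 dehydrogenase genes in every library. Its share of their summed FPKM was 73.1% and 59.6% in line 5, against 73.7% and 92.7% in WT. NDB2 took 23.0% and 34.6% in line 5, against 23.9% and 5.94% in WT. NDA2 took the remainder, between 1.38% and 5.78%. The summed FPKM of the 3 genes was 130 and 92.9 in line 5 and 216 and 209 in WT. Both line 5 sums were below both WT sums.

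The stress marker AT2G21640 rose and OM66 did not separate the groups. AT2G21640, an uncharacterised gene that the deposited table annotates as a marker of the oxidative stress response, had 1072 and 1111 counts in line 5, against 46 and 41 in WT. These correspond to 23.6 and 25.9 CPM in line 5 and 1.62 and 1.69 CPM in WT. The mean was 24.8 ± 1.67 CPM in line 5 and 1.66 ± 0.0495 CPM in WT (SD, n = 2 each). The groups were far apart, with each pair of libraries close together, and footprints were 14.9-fold higher in line 5 (log2 fold change 3.90, SE 0.141, 95% interval 3.54 to 4.26, adjusted p = 0.00181). It ranked 49 from the highest log2 fold change and 10 by p among 18737 genes tested. The call held with each library left out. In the fits without line 5 replicate 1 or 2 its adjusted p was 0.0373 and 0.0486, while 0.196% and 0.133% of all genes tested were called higher there.

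OM66 (AT3G50930, listed as BCS1), an AAA ATPase of the outer mitochondrial membrane, stood at 49.2 and 47.2 CPM in line 5, against 48.4 and 63.5 CPM in WT. WT replicate 1 fell between the line 5 libraries and WT replicate 2 above both. The log2 fold change was -0.21 (SE 0.155, 95% interval -0.61 to 0.18, adjusted p = 0.366), and -0.0034 without WT replicate 2. Without WT replicate 1, with 1 WT library left, the log2 fold change was -0.40. On the scale of log2(FPKM + 1) with 4 libraries its sign turned to 0.036 and it was not called.

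Ordered by mean FPKM over the 4 libraries, NDA1 came first with 126, AOX1A second with 99.3, then AT2G21640 with 41.0, NDB2 with 31.5 and OM66 with 29.4. NDA2 followed with 4.65, AOX1C with 0.407, AOX2 with 0.352, AOX1D with 0.0950 and AOX1B at 0. The order was not the same in both groups. In line 5 AOX1A came first, with the authors' mean FPKM of 110 for AOX1A, 77.6 for AT2G21640 and 75.1 for NDA1, and the libraries of these 3 genes overlapped in part. In WT NDA1 came first, with the authors' mean FPKM of 176 for NDA1 and 88.5 for AOX1A. In line 5, AT2G21640 stood at 73.0 and 82.1 FPKM, above NDB2 and OM66, and in WT it stood at 4.45 and 4.33 FPKM, below both. NDB2 at 29.8 and 32.1 FPKM and OM66 at 30.0 and 29.4 FPKM in line 5 overlapped, and AOX1C and AOX2 overlapped when all 4 libraries are considered.

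In the authors' deposited table, NDA1 and AT2G21640 had an FDR of 1.58e-05 and 2.07e-47, with log2 ratios of mean FPKM of -1.23 and 4.14. The other 8 genes in that table had an FDR between 0.310 for AOX2 and 1 for AOX1B. Its ratio for AOX1A was 0.32 and for NDB2 -0.05 on the log2 scale. DESeq2 called the same pair of genes, 1 higher and 1 lower, where it called 7.82% of genes higher and 11.2% lower. So did limma on log2(FPKM + 1), where 15.6% were called higher and 5.99% lower.

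The WT libraries differed in several of these genes by more than most genes of like level. The WT difference of NDB2 was larger than that of 99.9% of the 1000 genes nearest to it in mean level, that of AOX1A larger than 96.6% and that of NDA2 larger than 92.6%. All 3 were higher in WT replicate 1. OM66 and NDA1 were higher in WT replicate 2, by more than 84.3% and 83.8% of genes of like level. Against the central 95% of all genes tested, NDB2 alone among the 7 lay outside in WT. In line 5 the pair difference of NDA1 exceeded that of 99.0% of genes of like level, with 1.75-fold more in replicate 1, that of AOX1A exceeded 92.2%, with more in replicate 2, and that of NDB2 exceeded 42.5%.

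**Figure D3:**
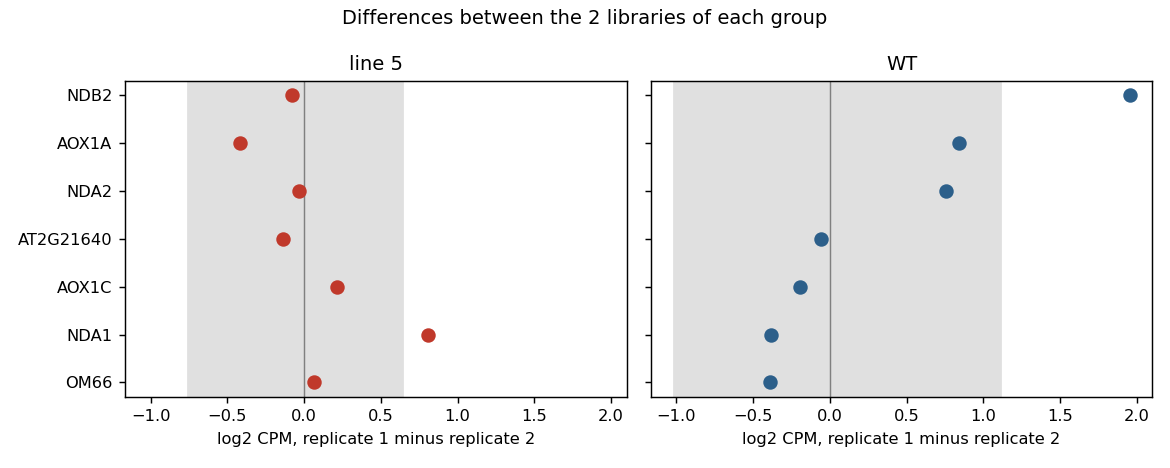
Difference in log2 CPM between replicate 1 and replicate 2 of line 5 (left) and of WT (right) for the 7 tested genes, with the central 95% of all genes tested in grey. NDB2 lies outside the grey range in WT at 1.95, and NDA1 lies outside it in line 5 at 0.81.

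Other genes of the retrograde response were described by lists of related loci. Among 13 regulators, 11 were tested, NAC016 only because it was high in line 5. Counts called and medians over the list are therefore not given. NAC016, a close relative of NAC017, rose 5.94-fold, at 1.23 and 1.52 CPM in line 5 against 0.212 and 0.248 CPM in WT (adjusted p = 0.0221). It reached the count filter in the line 5 libraries alone, so it could be tested only because it was high there. RCD1, a nuclear protein that binds and restrains NAC013 and NAC017, stood at 42.6 and 45.2 CPM in line 5 against 77.2 and 77.3 CPM in WT (log2 fold change -0.81, SE 0.0960, adjusted p = 0.0177). SRO1, its closest homolog, stood at 10.1 and 10.1 CPM in line 5 against 16.7 and 14.9 CPM in WT (log2 fold change -0.65, SE 0.121, adjusted p = 0.0327). NAC13, which activates the mitochondrial dysfunction genes, had 30.7 and 34.1 CPM in line 5 against 25.1 and 17.2 CPM in WT and was not called (adjusted p = 0.0989), nor was WRKY40, a repressor of AOX1A (log2 fold change -0.44, adjusted p = 0.165). Without WT replicate 1, with 1 WT library left, the log2 fold change was 0.91 for NAC13 and -0.68 for WRKY40. Without line 5 replicate 1 or 2, the calls of NAC016, RCD1 and SRO1 were lost.

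Of 10 other genes known from mitochondrial dysfunction, 9 were tested, AT2G04050 only because it was high in line 5. Counts called and medians over the list are therefore not given. UGT74E2 was lower at an unadjusted p under 0.05 and was called lower by DESeq2 on the 4 libraries (adjusted p = 0.0101). AT2G04050, a MATE efflux family gene, stood at 9.11 and 10.2 CPM in line 5 against 0.282 and 0.248 CPM in WT, a 35.8-fold difference (adjusted p = 0.00288), and reached the count filter in the line 5 libraries alone. The HSP20-like gene AT5G51440 rose 19.4-fold, the transporter gene ABCB4 6.29-fold and AT2G41730 2.98-fold. UGT74E2, a glucosyltransferase of the auxin precursor indole-3-butyric acid, had 4.23 and 5.68 CPM in line 5 against 14.8 and 7.76 CPM in WT. It was not called by edgeR (adjusted p = 0.0768). Its log2 fold change was -0.65 without WT replicate 1 and -1.58 without WT replicate 2. AT5G09570 had a log2 fold change of -0.87 and was not called. CYP81D8, a cytochrome P450 gene named here after its values were seen, resembled NDB2, with 26.2 and 25.4 CPM in line 5 against 36.0 and 12.2 CPM in WT. Its log2 fold change was 1.08 without WT replicate 1 and -0.48 without WT replicate 2, each with 1 WT library left. Without line 5 replicate 1 or 2, AT2G04050 and AT5G51440 were called, and ABCB4 and AT2G41730 were not.

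Of 4 AAA ATPase relatives of OM66, 3 were tested, AT2G18190 only because it was high in line 5. Counts called and medians over the list are therefore not given. Whether their fold changes differ from that of OM66 was not tested. AT2G18193 stood at 50.4 and 59.2 CPM in line 5 against 3.03 and 2.89 CPM in WT, an 18.5-fold difference (adjusted p = 0.00177). AT5G17760 rose 2.07-fold (adjusted p = 0.0373). AT2G18190 had 34 and 46 counts in line 5 and 0 and 0 in WT, at least 15.9-fold higher with a floor of 3 counts over the WT group (adjusted p = 0.0260), and reached the count filter in line 5 alone. AT2G18190 and AT2G18193 have neighbouring locus numbers, and how reads shared by such relatives were divided is not given in the sources used here. Without line 5 replicate 1 or 2, AT2G18193 was called and the other two were not.

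Of 4 further alternative dehydrogenase genes, NDB3 and NDB4 reached the count filter in the line 5 libraries alone, so counts and medians over the 4 are not given. NDB3, a relative of NDB2 of low abundance, rose 4.81-fold, with 60 and 38 counts in line 5 against 8 and 4 in WT (adjusted p = 0.0377), and lost its call without WT replicate 2 and without either line 5 replicate. NDB4 had 19 and 14 counts in line 5 against 2 and 3 in WT and was not called. Its scaled ratio, line 5 over WT, was 3.93 (95% counting interval 1.53 to 12.9). NDB1, an NADPH dehydrogenase of the outer face, had a log2 fold change of -0.19 and was not called. IM, the plastid terminal oxidase related to AOX, stood at 16.9 and 16.9 CPM in line 5 and 18.1 and 15.0 CPM in WT (log2 fold change 0.03, SE 0.133).

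Uncoupling proteins and dicarboxylate carriers move protons or dicarboxylates across the inner membrane. Of the 6 genes listed, DIC3 reached the count filter in the WT libraries alone, so counts and medians over the 6 are not given. DIC3 was called lower, with 3 and 5 counts in line 5 against 24 and 11 in WT (scaled ratio of WT over line 5 7.34, 95% counting interval 3.35 to 18.3, edgeR adjusted p = 0.0417), and the call was lost without WT replicate 1 and without either line 5 replicate. That ratio was 5.01 without WT replicate 1. PUMP1 had a log2 fold change of 0.31 and UCP5 of -0.23, neither called. Of 5 genes that feed electrons from amino acid breakdown into ubiquinone, 0 were called by edgeR (median log2 fold change 0.01). Among all genes tested 15.4% were called in either direction, so with 5 genes this count is no result about the list. DESeq2 and limma on log2(FPKM + 1) also called 0 of the 5. Over all genes DESeq2 called 7.82% higher and 11.2% lower, and limma 15.6% higher and 5.99% lower. Before adjustment, 1 of the 5, IVD, was under 0.05 by edgeR, as were 35.8% of all genes. D2HGDH had a log2 fold change of 0.20 (adjusted p = 0.245) and IVD of -0.35 (adjusted p = 0.133).

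Most of the mitochondrial chaperone genes listed were higher in line 5. Of 12 tested, 10 rose and 0 fell, beside 6.72% higher and 8.72% lower among all genes tested. The median log2 fold change was 0.87, beside 0.0023 over all genes tested. The disaggregase CLPB4 rose 3.09-fold, the mitochondrial HSP70 genes MTHSC70-2 2.63-fold and mtHsc70-1 1.53-fold, and the chaperonin genes HSP60-2 1.78-fold, HSP60 1.57-fold and HSP60-3A 1.46-fold. The nucleotide exchange factors MGE1 and AR192 rose 1.87-fold and 1.92-fold, and HSP23.6-MITO and AT5G51440 rose most. AT5G51440 is the same gene that appears above in the list of mitochondrial dysfunction genes. HSP23.6-MITO, a small heat shock protein of mitochondria, stood at 101 and 97.9 CPM in line 5 against 1.23 and 1.07 CPM in WT, an 85.8-fold difference (adjusted p = 0.00070). The other two members, CPN10 at 0.47 and Hsp89.1 at 0.37 on the log2 scale, did not pass. Among 7 proteases (median log2 fold change 0.02), LON1, an ATP-dependent matrix protease, rose 1.92-fold and the others were not called, with ftsh10 at -0.20 and CLPX at -0.14 on the log2 scale. Without line 5 replicate 1 or 2, HSP23.6-MITO and AT5G51440 were called and the other 8 chaperones and LON1 were not. HSP60 also lost its call without WT replicate 1 (adjusted p = 0.0532).

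Of 45 tested nuclear genes of complexes I to IV, cytochrome c and the ATP synthase, 2 rose and 1 fell, or 6.67%, below the 15.4% called in either direction among all genes tested. Their median log2 fold change was 0.06. By complex, medians were 0.06 for the 12 genes of complex I, 0.33 for 4 of complex II, 0.05 for 13 of complex III with cytochrome c, 0.06 for 8 of complex IV and -0.0027 for 8 of the ATP synthase. AT5G25450, a subunit of complex III, rose 10.0-fold, at 38.1 and 31.4 CPM in line 5 against 3.35 and 3.59 CPM in WT (adjusted p = 0.00342), and kept its call with each library left out. The complex IV gene AT3G15640 rose 1.36-fold and AT5G61310 fell by 0.65 on the log2 scale. Both calls were lost without either line 5 replicate, and that of AT3G15640 also without WT replicate 2. The uncalled genes with the smallest p were GAMMA CAL2 and GAMMA CA3 of complex I (0.30 and 0.16 on the log2 scale), SDH1-2 and SDH2-1 of complex II (1.12 and 0.42), AT5G05370 and AT5G13440 of complex III (0.29 and -0.20), AT2G47380 and AT5G57815 of complex IV (0.34 and 0.17) and ATPQ and AT5G47030 of the ATP synthase (0.15 and -0.14).

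**Figure D4:**
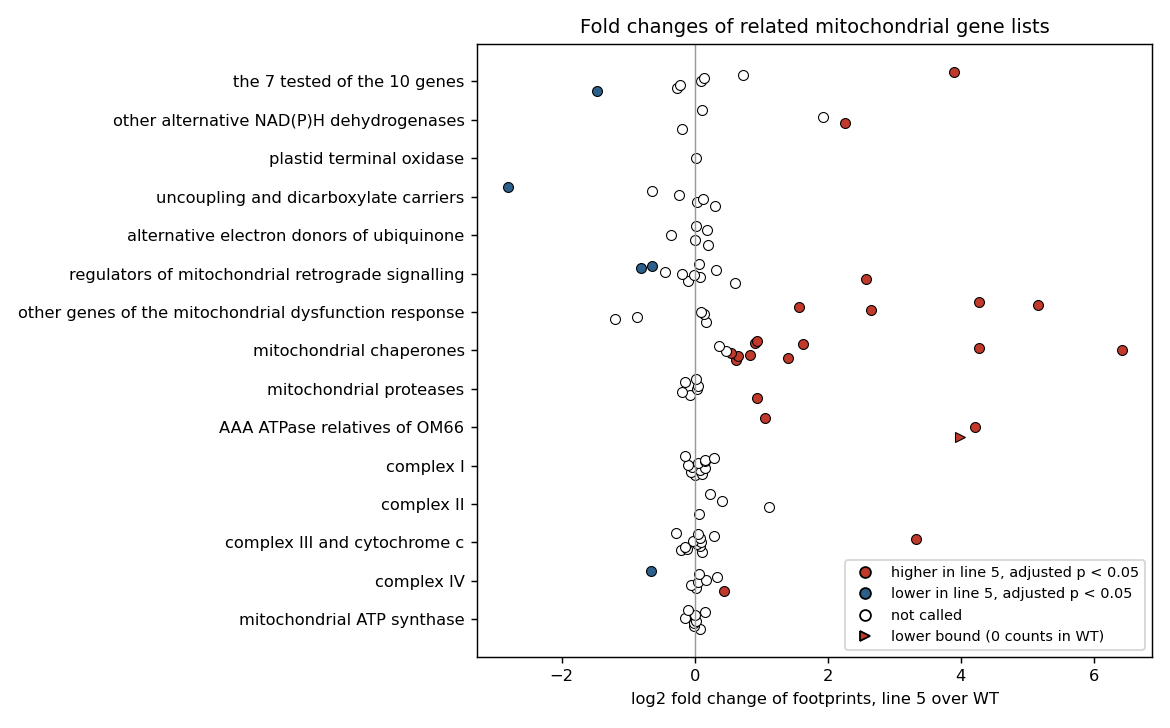
Log2 fold change of footprints, line 5 over WT, for each tested gene of the chosen set and of 14 related lists. Filled red and blue points passed the test and open points did not. Of 12 chaperones 10 are red, while most genes of the complexes lie near 0. Among those further away are 1 complex III gene at 3.32, SDH1-2 of complex II at 1.12 and AT5G61310 of complex IV at -0.65.

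The genes most like AOX1A and AT2G21640 across the 4 libraries were found by the distance between log2 CPM profiles, each centred on its own mean, among 12917 other genes with a mean of at least 5 CPM. Nearest to AOX1A were AT1G27930, AT3G43610 and the cytokinin response factor gene CRF6, at distances of 0.0548, 0.0548 and 0.0578. CRF6, which is also in the list of retrograde regulators, stood at 7.68 and 10.7 CPM in line 5 and 11.1 and 6.36 CPM in WT. Nearest to AT2G21640 were the J-domain gene AT1G72416, Hsp70b and the disaggregase gene HSP101, at distances of 0.122, 0.307 and 0.310. With 4 libraries such a profile is set by the group difference and the 2 pair differences, so the distances are descriptions of these libraries.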

How the data were processed

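Ribosome profiling libraries of whole seedlings, 2 of line 5 and 2 of WT, were used from 1 deposited table. Per the file headers, each gene has a count for every library, an FPKM for every library, group means of FPKM, their log2 ratio, a p-value and an FDR. The deposited count columns hold whole numbers and are not normalized. The authors' FPKM correct for gene length and were used to set levels of different genes side by side. The authors' log2 ratios and p-values were copied for the 10 genes. Per the submitters' processing notes reads were handled on build TAIR10 with STAR, Bowtie2, fastp, DESeq2 and RSEM, whose versions and roles are not given. Whether counting used strand or was limited to coding sequence is not given in the sources used here. No overlapping locus was found for the 10 genes in the RefSeq table of TAIR10.1, which also gave symbols for 27444 of 27554 genes and whose coordinates are not printed.

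The 5 rows without an identifier, 0.0145% to 0.0340% of a library's counts, were left out. Counts were tested with edgeR 4.0.16 in R 4.3.3 (filterByExpr with a minimum count of 10, TMM, quasi-likelihood F-test on group, two-sided, Benjamini-Hochberg over 18737 genes, threshold 0.05). The standard error is the log2 fold change divided by the square root of F. The edgeR procedure was also run on simulated counts with the same dispersion, 0.0262, for every gene and both groups. Those counts lack the unequal spread of the real library pairs, so they do not test for it. Alternatives used DESeq2 1.42.0, limma 3.58.1, DESeq2 size factors, other filters, no organelle genes, a replicate block, FPKM with a pseudocount of 1, and each library left out. Replicate libraries were not duplicates: their counts gave a chi-square of 25.7 (line 5) and 39.0 (WT) per degree of freedom. The 10 genes, the 14 lists and the tests were chosen with earlier results of these data known. The rule for named genes takes the 10 genes, ClpD, each list's called genes with up to 2 further genes of smallest p, and the 3 nearest profiles to AOX1A and to AT2G21640.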

Additional observations from a re-analysis of the deposited data

How the results depend on the processing

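AT2G21640 was higher in every alternative run, with log2 fold changes between 3.83 and 3.97, and NDA1 was lower in each, between -1.93 and -1.12. With each library left out in turn, the chosen genes called higher numbered 1 to 2 and those called lower 0 to 3, while all genes called higher numbered 25 to 2197 and lower 3 to 2904. Without a line 5 library only the WT pair gives a spread, and that pair differed more (SD of the log2 difference 0.344 in line 5 and 0.512 in WT). Without a WT library only the line 5 pair gives a spread, so calls there leave out the difference between the WT libraries. The replicate numbers of the labels are not stated to pair libraries, and same-numbered deviations correlated at -0.12 across genes. With the replicate block, 286 genes were higher and 457 lower, AT2G21640 was called, and 0 of the chosen genes were lower because NDA1 had an adjusted p of 0.0725. Limma on log2(FPKM + 1) called 2927 genes higher and 1123 lower, 72.3% of calls higher against 43.6% with edgeR (72.5% and 89.3% without line 5 replicate 1 and 2), and its median over genes was 0.20 against 0.0023. On that scale OM66 had 0.036, NDB2 0.27, NDB1 0.063, UCP5 0.0092, ftsh10 0.039, CLPX 0.10, AT5G13440 0.036 and AT5G47030 0.10, each reversed in sign. NDB2 was also reversed with limma-voom (0.039) and with the replicate block (0.039). With each library left out, the sign also turned for NDB2 (-0.92 to 1.03), AOX1A (-0.27 to 0.57), NDA2 (-0.18 to 0.58) and IM (-0.10 to 0.17). The sign of CYP81D8 turned in the same way (-0.48 to 1.08). The causes of these changes were not tested. AOX1B and AOX1D are limited by depth, and AOX2 by the difference between its WT libraries (31 and 4 counts).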

Other observations

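Of the genes in the related lists, 5 had too few counts to be tested and were named after their counts were seen. AT3G50940, the locus next to OM66 and its AAA ATPase relative, had 5 and 6 counts in line 5 and 6 and 3 in WT, while OM66 itself had 2236 and 2019 counts in line 5 and 1372 and 1538 in WT. AT2G04070, a MATE efflux family gene like the called AT2G04050, had 6 and 3 counts in line 5 and 0 and 2 in WT. The complex II gene SDH2-3 had 7 and 5 counts in line 5 and 4 and 3 in WT. ABO3, a WRKY regulator, had 1 and 4 counts in line 5 and 4 and 1 in WT. ABI4, a transcription factor described as a repressor of AOX1A, had 0 counts in all 4 libraries.

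The dicarboxylate carrier gene DIC2, named after its values were seen, also had WT libraries far apart, in the direction opposite to NDB2 and CYP81D8. It stood at 113 and 126 CPM in line 5, against 121 and 255 CPM in WT, and was not called with 4 libraries (edgeR, log2 fold change -0.65, adjusted p = 0.247). The log2 fold change was -1.09 without WT replicate 1 and -0.01 without WT replicate 2, each with 1 WT library left.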
